A study of Mus musculus with 6 samples.

Results

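The feedback genes of the ERK pathway were examined in RNA-sequencing libraries of immortalized mouse embryonic fibroblasts (MEFs). They were taken by symbol from the deposited table and comprised 10 of its 26231 genes: the MAP kinase phosphatases Dusp4, Dusp5 and Dusp6, the Sprouty genes Spry1, Spry2 and Spry4, the Sprouty-related genes Spred1 and Spred2, and the ETS transcription factors Etv4 and Etv5. The study compared fibroblasts with and without Nf2, the gene of the tumor suppressor Merlin. The fibroblasts came from embryos of about 14 days by the labels (an earlier day in the study's methods) with both Nf2 alleles floxed, on an FVB background, and were immortalized with an SV40 large T antigen lentivirus. A lentivirus with GFP behind the CMV promoter gave the control line, MEF Nf2fl/fl, which the labels also call wild type, and a lentivirus with Cre and GFP behind the same promoter gave MEF Nf2-/-. Both lines therefore carried large T antigen and GFP, and both were kept without serum for 24 h before RNA extraction. Each genotype was represented by 1 line with 3 libraries, replicates 1, 2 and 3, whose columns were marked A, B and 2018. No source stated that the replicates were separate cultures, so the p-values measure only the spread between these libraries, which may be technical.

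ERK is the last kinase of the cascade that runs from growth factor receptors through Ras, Raf and MEK. Active ERK induces its own inhibitors: dual-specificity phosphatases remove the phosphates that activate MAP kinases, while Sprouty and Spred proteins act upstream, at the level of receptors, Ras and Raf. Etv4 and Etv5 are ETS factors of the PEA3 group that are induced by the same signalling, in part by relief from the repressor Capicua (Cic), and the transcripts of these genes are widely used as a readout of ERK output.

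Most of these genes were highest in replicate 2 of both lines. Dusp5, Dusp6, Spry2, Spry4, Etv4 and Etv5 rose in replicate 2 against replicates 1 and 3, by 0.44 to 1.82 on the log2(RPKM + 1) scale (6 of 10 higher and 0 lower, where 10.8% of the 11067 genes tested were called higher and 19.8% lower), and Spry1, Spred1, Spred2 and Dusp4 did not pass the test. Between the lines, 8 of the 10 genes had a lower fitted level in MEF Nf2-/-. The other 2, Spry1 and Dusp5, had a higher one, as had 47.9% of the 11067 genes tested. Without a replicate block 0 of 10 passed the limma test, where 0.479% of all genes were called higher and 0.578% lower. In that fit 5 had an unadjusted p under 0.05, as had 1097 of the 11067 genes tested. With the replicate number as a block, 6 passed: Spry2, Spry4, Spred2, Etv4 and Etv5 fell in MEF Nf2-/- and Spry1 rose, where 2.99% of all genes were called higher and 4.54% lower. These blocked calls were 2 to 4 when a library or a replicate number was left out, with Spry1 never among them, and 0 when no filter on low values was used. RPKM values are reads scaled to the exon length of the gene and to the size of the library. In these bulk samples, fewer cells of a type and less RNA per cell cannot be told apart.

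**Figure D1:**
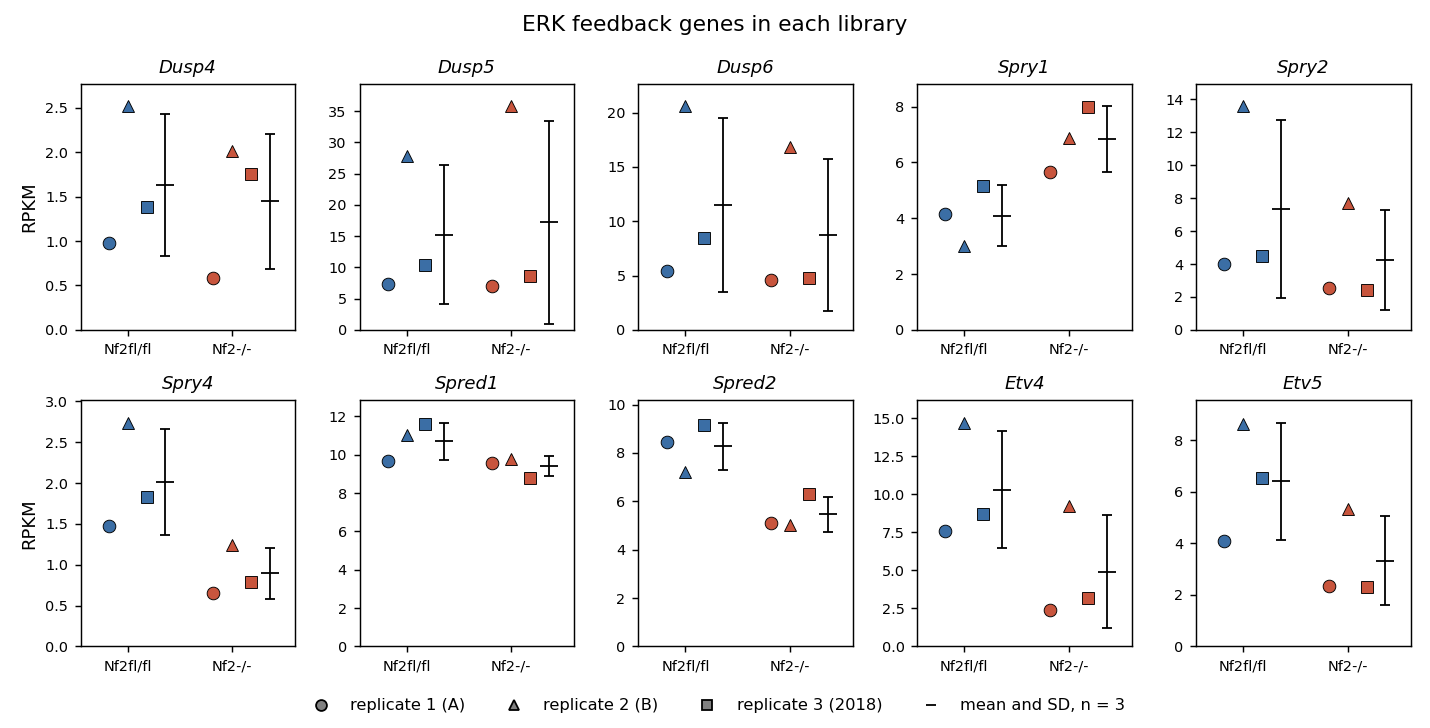
RPKM of the 10 ERK feedback genes in each library, with MEF Nf2fl/fl in blue and MEF Nf2-/- in red, the marker giving the replicate and the black bar the mean and SD of 3 libraries. Replicate 2 (triangles) is the highest library of both lines for 7 genes, while Spry1, Spry4 and Spred2 separate the lines.

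Nf2 RNA itself did not tell the lines apart. Replicates 1, 2 and 3 stood at 14.3, 13.7 and 13.1 RPKM in the control line, against 15.4, 12.9 and 13.9 RPKM where the label was MEF Nf2-/- (limma adjusted p = 0.988), so RNA levels do not check the genotype. The first principal component of all genes tested (50.3% of the variance) set replicate 2 of both lines apart from the other libraries, and the second (32.7%) set the lines apart. Depth inferred from the steps of the values was 13429287 to 72910883 reads, with the 2 libraries of replicate 3 the deepest, while replicate 2 lay near replicate 1. All 10 fibroblast markers were detected, with Vim the highest by mean level, as for each marker named here (536 to 882 RPKM), and their summed level, lowest in replicate 2 of each line, ranged from 2490 to 3300 RPKM over the MEF Nf2fl/fl libraries and from 1730 to 2270 RPKM over the MEF Nf2-/- libraries. Of the markers of other cells, the macrophage list summed to 7.44 to 12.0 RPKM (highest Cd68, 5.08 to 8.10), the skeletal muscle list to 2.58 to 11.1 RPKM (highest Tnnt2), the endothelial list to 1.54 to 4.74 RPKM (highest Kdr, 1.32 to 4.39), the neural crest and glial list to 1.28 to 1.61 RPKM (highest Mbp) and the epithelial list to at most 1.43 RPKM (highest Krt18). The muscle and endothelial sums were highest in replicate 2 of each line. The part of these marker differences in the results below was not tested.

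The stretches before the start sites are shown for Dusp5, Dusp6 and Spry2, the 3 genes with the largest rise in replicate 2, because these were also the genes whose stretches held a searched motif. Sequences came from a set of RefSeq promoters (GRCm38.p6). The set used here had entries for 7 of the 10 genes, not for Dusp4, Spry4 or Etv4. The 250 bases before each start were searched on both strands for the AP-1 site TGANTCA, the cAMP response element TGACGTCA, the ETS site CCGGAAGT, the CArG box of serum response factor and the octamers TGAATGAA, TGAATGGA, TCAATGAA and TCAATGGA of Capicua. Capitals mark the CArG boxes in Dusp5 and the Capicua octamers, which lie on the opposite strand, in Dusp6 and Spry2. Each run is given 5′ to 3′ on the strand of its gene and stops before the annotated gene begins, at chr19:53528895-53529108 (plus strand) for Dusp5, chr10:99262981-99263230 (plus strand) for Dusp6 and chr14:105896820-105897069 (minus strand) for Spry2.
Dusp5: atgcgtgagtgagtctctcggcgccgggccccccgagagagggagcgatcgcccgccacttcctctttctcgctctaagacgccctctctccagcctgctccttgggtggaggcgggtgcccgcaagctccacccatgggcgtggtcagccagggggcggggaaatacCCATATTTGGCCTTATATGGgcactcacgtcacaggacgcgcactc
Dusp6: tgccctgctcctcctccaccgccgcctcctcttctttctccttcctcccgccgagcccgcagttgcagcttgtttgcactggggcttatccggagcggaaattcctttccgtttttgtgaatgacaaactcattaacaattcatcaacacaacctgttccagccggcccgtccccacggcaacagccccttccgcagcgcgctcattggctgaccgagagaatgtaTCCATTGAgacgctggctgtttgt
Spry2: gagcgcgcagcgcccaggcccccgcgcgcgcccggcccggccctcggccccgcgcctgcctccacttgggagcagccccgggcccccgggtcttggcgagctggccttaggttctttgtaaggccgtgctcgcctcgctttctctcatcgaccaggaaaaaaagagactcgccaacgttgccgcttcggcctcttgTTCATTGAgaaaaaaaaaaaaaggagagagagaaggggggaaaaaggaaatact
The Dusp5 stretch held 2 adjoining CArG boxes, at positions -82 to -73 and -72 to -63 from the RefSeq start, each reading as a CArG box on both strands. The octamer of Dusp6 lay at -24 to -17 and that of Spry2 at -54 to -47. Over all 32851 promoters of this set, 1.47% held a CArG box and 3.19% a Capicua octamer within the same 250 bases. Spry1, Spred1, Spred2 and Etv5 held neither, and none of the 7 genes held the AP-1 site (6.75% of all promoters), the cAMP response element (1.55%) or the ETS site (2.88%). These matches describe letters only, and no binding was measured.

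Of the phosphatases, Dusp5 and Dusp6 rose in replicate 2 and Dusp4 did not pass. Dusp5, a nuclear phosphatase that acts on ERK (chr19:53529109-53542431), was at 7.42, 27.8 and 10.3 RPKM in replicates 1, 2 and 3 of MEF Nf2fl/fl and at 6.97, 35.8 and 8.66 RPKM in MEF Nf2-/-. Replicate 2 stood far above the others in both lines, and the lines overlapped. It was 3.15-fold the mean of replicates 1 and 3 in MEF Nf2fl/fl and 4.58-fold in MEF Nf2-/-, a rise of 1.82 ± 0.165 (SE) on the log2(RPKM + 1) scale (limma adjusted p = 0.00135). The means of the lines, 15.2 ± 11.1 and 17.2 ± 16.2 RPKM (SD, n = 3), were not distinguished by limma, with or without the block (adjusted p = 0.947 and 0.998). Dusp5 overlaps an antisense gene that the table did not list, and whether reads were counted by strand was not stated.

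Dusp6, the cytoplasmic phosphatase of ERK and a common readout of its activity (chr10:99263231-99267489), was at 5.43, 20.6 and 8.5 RPKM in MEF Nf2fl/fl and at 4.55, 16.8 and 4.78 RPKM in MEF Nf2-/-. Again replicate 2 was the high library of each line, and MEF Nf2-/- was the lower of every same-numbered pair. The rise in replicate 2 was 1.56 ± 0.151 on the log2(RPKM + 1) scale (limma adjusted p = 0.00155), or 2.95-fold in MEF Nf2fl/fl and 3.59-fold in MEF Nf2-/-. The difference between the lines, -0.40 on the same scale, missed the limma threshold both without the block (adjusted p = 0.956) and with it (adjusted p = 0.0998).

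Dusp4, a nuclear phosphatase of ERK and other MAP kinases (chr8:34807297-34819894), was the least expressed phosphatase. It was at 0.976, 2.52 and 1.38 RPKM in MEF Nf2fl/fl and at 0.585, 2.01 and 1.76 RPKM in MEF Nf2-/-, from only 28.9 to 351 inferred reads. Replicate 2 was highest in both lines, closely followed by replicate 3 in MEF Nf2-/-. Neither the replicate 2 difference (0.61 ± 0.218 on the log2(RPKM + 1) scale, limma adjusted p = 0.0736) nor the line difference (-0.11, adjusted p = 0.987) passed. Summed, the 3 phosphatases were at 13.8, 50.9 and 20.1 RPKM in MEF Nf2fl/fl and at 12.1, 54.6 and 15.2 RPKM in MEF Nf2-/-, so replicate 2 was 3.00-fold and 4.0-fold the mean of the other replicates.

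The 3 Sprouty genes, which encode membrane-associated inhibitors of receptor signalling to Ras and Raf, did not move alike. Spry2 (chr14:105891947-105896819) was at 3.99, 13.6 and 4.51 RPKM in MEF Nf2fl/fl and at 2.52, 7.73 and 2.45 RPKM in MEF Nf2-/-. Replicate 2 was the high library in each line, and within every replicate number MEF Nf2-/- was the lower, at 0.631, 0.568 and 0.543 of its pair. Spry2 rose in replicate 2 by 1.40 ± 0.0835 on the log2(RPKM + 1) scale (limma adjusted p = 0.00048), in 10th place by p among the 11067 genes tested, and the rise was close in size in the lines, 3.2-fold and 3.11-fold. Its line difference of -0.64 had a standard error of 0.520 without the block (limma adjusted p = 0.871) and 0.0747 with it (adjusted p = 0.0109). Without the block, the difference was -0.15 when replicate 2 of MEF Nf2fl/fl was left out and -1.08 when replicate 2 of MEF Nf2-/- was.

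Spry4 was at 1.47, 2.74 and 1.83 RPKM in MEF Nf2fl/fl and at 0.651, 1.24 and 0.784 RPKM in MEF Nf2-/-. The lines did not overlap, and replicate 2 was again the highest of each. MEF Nf2-/- was at 0.442, 0.454 and 0.428 of its same-numbered pair, the most even ratio of the genes that fell. The line difference was -0.66 on the log2(RPKM + 1) scale, with a limma adjusted p of 0.256 without the block and 0.0127 with it. Spry4 rose in replicate 2 by 0.44 ± 0.104 (adjusted p = 0.0197), or 1.65-fold and 1.73-fold.

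Spry1 (chr3:37639947-37644598) ran against the other Sprouty genes. It was at 4.14, 2.99 and 5.15 RPKM in MEF Nf2fl/fl and at 5.65, 6.86 and 8.0 RPKM in MEF Nf2-/-. Every MEF Nf2-/- library was above every MEF Nf2fl/fl library, and replicate 2 was the lowest of MEF Nf2fl/fl but lay between the others in MEF Nf2-/-. The rise in MEF Nf2-/- was 0.63 on the log2(RPKM + 1) scale (1.36-fold, 2.30-fold and 1.55-fold within the pairs), with a limma adjusted p of 0.262 without the block and 0.0426 with it. The replicate 2 difference of -0.24 did not pass (adjusted p = 0.322). A gene on the opposite strand, Gm42922, overlaps Spry1 and was at 0.0626 to 0.184 RPKM, and without stated strand their shared reads cannot be told apart.

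The Spred genes, whose proteins bind neurofibromin and restrain Ras, were the steadiest across replicates. Spred1 (chr2:117121374-117182279) was at 9.66, 11 and 11.6 RPKM in MEF Nf2fl/fl and at 9.59, 9.77 and 8.80 RPKM in MEF Nf2-/-. The highest library was 1.31-fold the lowest, and the ranges of the lines overlapped narrowly. Neither the line difference (-0.17 on the log2(RPKM + 1) scale, limma adjusted p = 0.712, or 0.285 with the block) nor the replicate 2 difference (0.07, adjusted p = 0.604) passed.

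Spred2 (chr11:19924375-20024026) was at 8.44, 7.20 and 9.15 RPKM in MEF Nf2fl/fl and at 5.09, 5.02 and 6.29 RPKM in MEF Nf2-/-. The lines did not overlap, and replicate 2 was the lowest library of both. The mean of MEF Nf2fl/fl, 8.27 ± 0.985 RPKM, stood against 5.46 ± 0.715 RPKM for MEF Nf2-/- (SD, n = 3), a line difference of -0.52 on the log2(RPKM + 1) scale, with a limma adjusted p of 0.165 without the block and 0.0152 with it. The replicate 2 difference was -0.20 (adjusted p = 0.148). Summed, the Spred genes in replicate 2 were at 0.937 and 0.994 of the mean of the other replicates of MEF Nf2fl/fl and MEF Nf2-/-, against 3.00 and 4.0 for the phosphatases.

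Both ETS factors were lower in MEF Nf2-/- within every replicate number. Etv4 (chr11:101769742-101785371) was at 7.59, 14.7 and 8.67 RPKM in MEF Nf2fl/fl and at 2.39, 9.19 and 3.16 RPKM in MEF Nf2-/-. MEF Nf2-/- was at 0.315, 0.623 and 0.365 of its pair, and only its replicate 2 reached the range of MEF Nf2fl/fl. The line difference was -1.06 on the log2(RPKM + 1) scale, with a limma adjusted p of 0.492 without the block and 0.0184 with it. Etv4 rose in replicate 2 by 1.11 ± 0.162 (adjusted p = 0.0048), or 1.81-fold in MEF Nf2fl/fl and 3.31-fold in MEF Nf2-/-.

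Etv5 (chr16:22381309-22439719) was at 4.09, 8.63 and 6.52 RPKM in MEF Nf2fl/fl and at 2.36, 5.33 and 2.29 RPKM in MEF Nf2-/-. As for Etv4, replicate 2 was the high library and MEF Nf2-/- the lower of each pair, at 0.576, 0.618 and 0.351. The line difference was -0.80 on the log2(RPKM + 1) scale (limma adjusted p = 0.484 without the block, 0.0286 with it), and the rise in replicate 2 was 0.78 ± 0.159 (adjusted p = 0.0128). The 2 factors together were at 11.7, 23.4 and 15.2 RPKM in MEF Nf2fl/fl and at 4.74, 14.5 and 5.46 RPKM in MEF Nf2-/-.

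**Figure D2:**
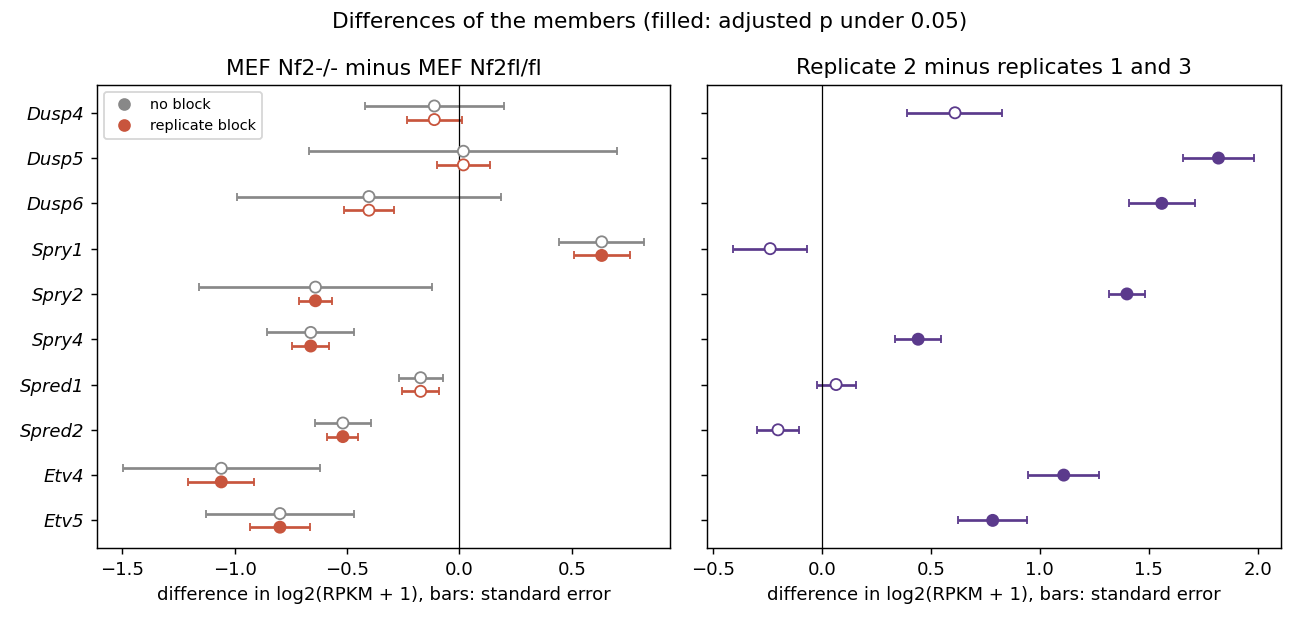
Differences in log2(RPKM + 1) with their standard errors from limma, between the lines (left, without and with the replicate block) and between replicate 2 and replicates 1 and 3 (right), filled where the adjusted p is under 0.05. The block leaves the differences in place and narrows their errors, and 6 genes are filled in each panel.

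The median replicate 2 difference of the 10 genes was 0.70 on the log2(RPKM + 1) scale, against -0.08 over all genes tested. The split of calls over all genes depended on scaling: 1195 were higher and 2191 lower as deposited, 1553 and 1412 after quantile normalization, and 1698 and 1536 after median centring, while the count of feedback genes stayed at 6 higher. Replicate 2 was the highest library of both lines for 7 of 10 (all but Spry1, Spred1 and Spred2), where 23.2% of all genes had this pattern, and the lowest of both for 1 (Spred2), where 39.5% had it. Single-gene exact permutation tests within the lines allow no p below 0.111.

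The median line difference was -0.46 for the 10 genes and -0.01 over all genes tested. The lines did not overlap for 1 gene that was higher in MEF Nf2-/- (Spry1, where 7.6% of genes had this pattern) and for 2 that were lower (Spry4 and Spred2, where 7.52% had it). MEF Nf2-/- was the lower library in all 3 same-numbered pairs for 7 genes (Dusp6, Spry2, Spry4, Spred1, Spred2, Etv4 and Etv5, where 24.6% of genes had this pattern) and the higher in all 3 for Spry1 (where 22.3% had it). An exact permutation test of 3 against 3 libraries allows no p below 0.1.

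Fewer blocked calls were made when a replicate number was left out, in fits that kept 2 pairs of libraries. Leaving out replicate 1 left Spry2 and Spry4 (320 of 11067 genes were called), leaving out replicate 2 left Spry2, Spred2 and Etv4 (454 genes), and leaving out replicate 3 left Spry2, Spry4, Spred2 and Etv5 (419 genes). The differences themselves kept their direction, at -0.92, -1.28 and -0.99 on the log2(RPKM + 1) scale for Etv4 and 0.76, 0.46 and 0.68 for Spry1 without replicates 1, 2 and 3. Spry2 was called in each of these fits and Spry1 in none. With replicate 2 left out of both lines, the fit without the block called Spry2 and Etv4 lower in MEF Nf2-/-. The replicate 2 rises of Dusp5 and Dusp6 passed under all 17 alternatives and that of Spry2 under all 16 that tested it, while that of Etv4 passed under 16 of 17, Etv5 under 12 of 17 and Spry4 under 11 of 16. These alternatives include the fits without replicate 2 of MEF Nf2-/- or of MEF Nf2fl/fl. Such fits leave 1 replicate 2 library, so their spread comes only from replicates 1 and 3. Etv5 and Spry4 lost their calls in both of these fits. They also lost them without replicate 1 of both lines (limma adjusted p = 0.0576 and 0.0585). Both calls were also lost without a filter and without the line term, and that of Etv4 without the line term. Dusp4, not called otherwise, passed without replicate 3 of MEF Nf2-/- (0.80, limma adjusted p = 0.00672) and without replicate 3 of both lines (0.88, adjusted p = 0.0083).

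Whether the replicate 2 difference itself differed between the lines was tested as an interaction. With 1 replicate 2 library a line, its spread came only from replicates 1 and 3, so a count of 0 does not show that the lines responded alike. It called 0 of the 10 genes and 0% of all genes (limma, 1 of 10 and 313 of 11067 at an unadjusted p under 0.05). The largest member values, each higher in MEF Nf2-/- and each with a limma adjusted p of 1, were 0.65 ± 0.227 for Etv4, 0.52 ± 0.295 for Spry1 and 0.50 ± 0.288 for Dusp5.

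**Figure D3:**
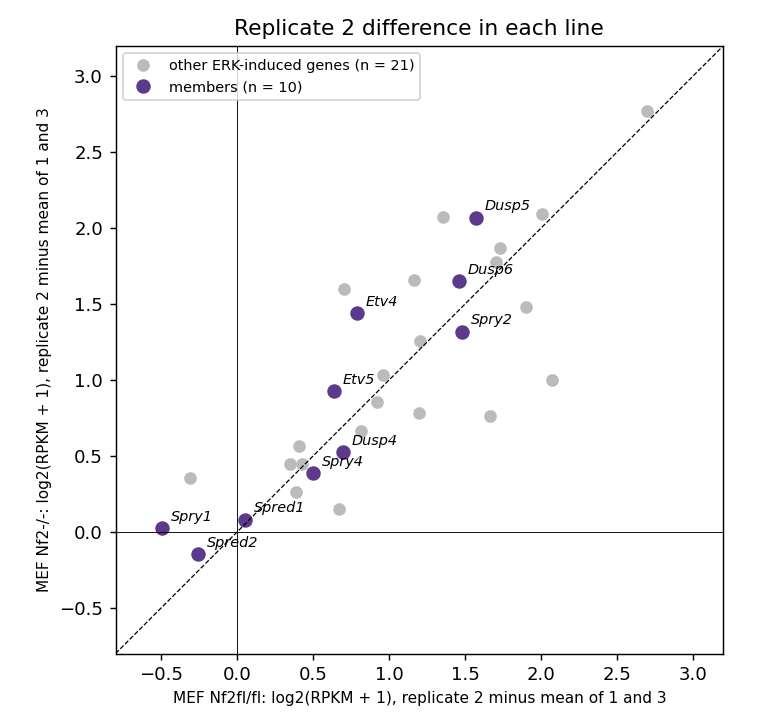
Difference in log2(RPKM + 1) between replicate 2 and the mean of replicates 1 and 3 in MEF Nf2fl/fl (horizontal) and in MEF Nf2-/- (vertical), with the 10 feedback genes in purple, 21 other ERK-induced genes in grey and the dashed line marking equal differences. Dusp5, Dusp6 and Spry2 lie far up in both lines, and Spry1, Spred1 and Spred2 lie near 0 or below it in MEF Nf2fl/fl. Of the 10 feedback genes, 7 lie above the dashed line, Etv4 the farthest.

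The order of levels, in RPKM, was led by Dusp5 in both lines. In MEF Nf2fl/fl it ran Dusp5, Dusp6, Spred1, Etv4, Spred2, Spry2, Etv5, Spry1, Spry4 and Dusp4, and in MEF Nf2-/- Dusp5, Spred1, Dusp6, Spry1, Spred2, Etv4, Spry2, Etv5, Dusp4 and Spry4. Each gene overlapped its neighbour in these orders over the libraries, except that the last 2 genes of each line lay below the rest. Spry1 stood 8th in MEF Nf2fl/fl and 4th in MEF Nf2-/-. Summed over the 10 genes, replicates 1, 2 and 3 held 53.2, 112 and 67.5 RPKM for MEF Nf2fl/fl, against 40.3, 99.7 and 47.0 RPKM for MEF Nf2-/-.

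The non-members whose pattern over the 6 libraries was most like the mean pattern of the feedback genes were Ext1, Axl, Map2k3os, Rnf19b and Tnk2os, with root mean square differences of 0.103 to 0.114 in centred log2(RPKM + 1). Ext1, a heparan sulfate polymerase, was at 12.9, 26.8 and 17.7 RPKM in MEF Nf2fl/fl and at 11.9, 23.9 and 13.4 RPKM in MEF Nf2-/-. The members themselves lay 0.216 (Spry4) to 0.688 (Spry1) from their mean. The non-members were picked for closeness, so these ranges are not compared.

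Among other ERK-induced genes, a list of transcription factors, ligands and other targets, 19 of 21 tested (24 listed) were higher in replicate 2 and 0 lower, with a median difference of 1.15 on the log2(RPKM + 1) scale. Over all genes tested, 10.8% were called higher in replicate 2 and 19.8% lower. The immediate early factor Egr1 was at 9.24, 79.3 and 13.9 RPKM in MEF Nf2fl/fl and at 6.85, 44.9 and 4.78 RPKM in MEF Nf2-/-, a rise of 2.73 (limma adjusted p = 0.000736). The EGF receptor ligand Hbegf rose by 2.05, the urokinase receptor Plaur by 1.80 and Phlda1, a pleckstrin homology-like domain protein, by 1.74 on the same scale (adjusted p = 0.000775, 0.000455 and 0.000455). The 2 genes that did not pass were Ccnd1, the gene of cyclin D1 (0.02, adjusted p = 0.933), and the ephrin receptor gene Epha4 (0.40, adjusted p = 0.119), both named after their values were seen. Between the lines 0 of 21 passed without the block (limma, 5 at an unadjusted p under 0.05). With it, 1 rose and 6 fell in MEF Nf2-/-, where 2.99% of all genes were called higher and 4.54% lower.

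Other members of the same families had a median replicate 2 difference of 0.40 on the log2(RPKM + 1) scale. Of 8 tested (11 listed), 3 rose in replicate 2 and 0 fell, where 10.8% of all genes were called higher and 19.8% lower. Dusp1, a phosphatase of stress-activated kinases and ERK, rose by 0.72 (limma adjusted p = 0.00957). Dusp10, which acts on p38 and JNK, rose by 0.61 (limma adjusted p = 0.0032) and Dusp8 by 0.33 (adjusted p = 0.0439). Between the lines 0 of 8 passed without the block (limma, 3 at an unadjusted p under 0.05). With it, 3 fell in MEF Nf2-/-, Dusp10, Dusp7 and Spred3, the last 2 named after their values were seen. Over all genes, 2.99% were called higher and 4.54% lower with the block.

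**Figure D4:**
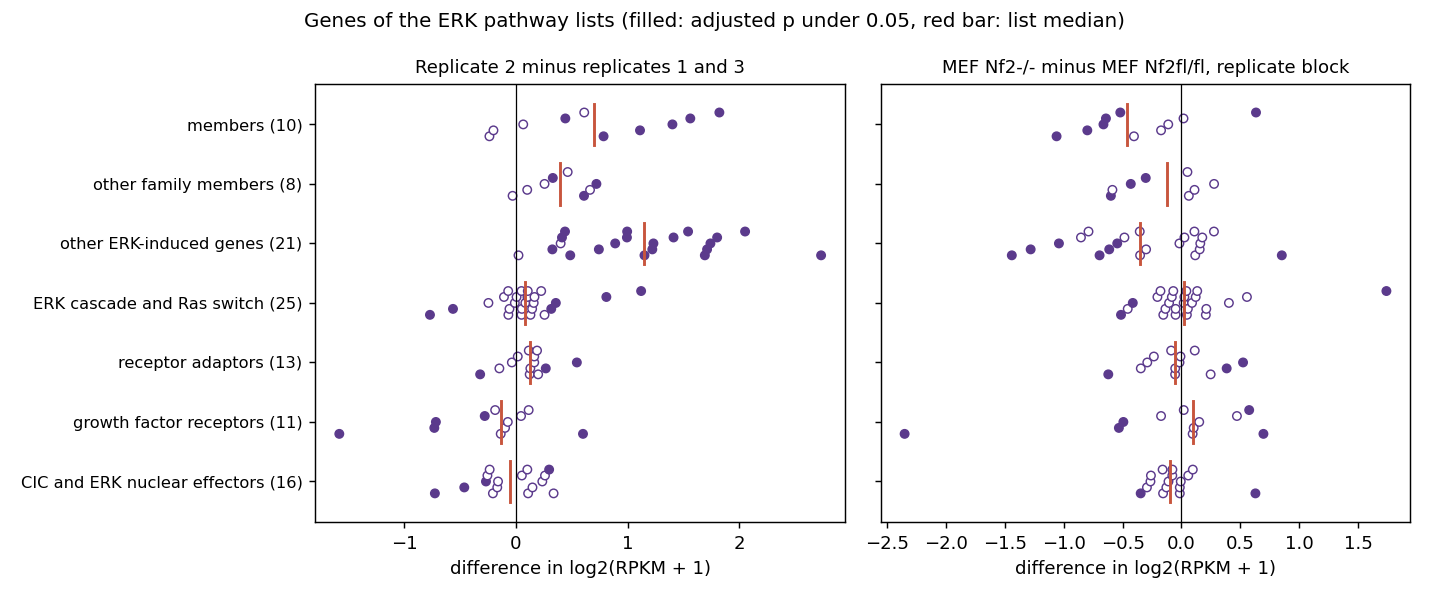
Difference in log2(RPKM + 1) of each gene tested in the ERK pathway lists, for replicate 2 (left) and for MEF Nf2-/- against MEF Nf2fl/fl with the replicate block (right), filled where the adjusted p is under 0.05, with red bars at the list medians. In replicate 2 the feedback genes (median 0.70) and the other ERK-induced genes (median 1.15) lie to the right of the cascade, adaptor, receptor and nuclear effector lists.

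Of the genes of the cascade itself, 25 were tested (27 listed), and 4 rose and 2 fell in replicate 2, with a median difference of 0.08 on the log2(RPKM + 1) scale. Over all genes tested, 10.8% were called higher in replicate 2 and 19.8% lower. Rasgrp3, an exchange factor that activates Ras, was at 0.483, 2.39 and 0.590 RPKM in MEF Nf2fl/fl and at 3.98, 10.1 and 4.43 RPKM in MEF Nf2-/-. Its line difference was 1.74, with a limma adjusted p of 0.168 without the block and 0.000987 with it. In replicate 2 it rose by 1.12 (limma adjusted p = 0.000785). The Ras-related GTPase gene Rras2 rose by 0.81 (adjusted p = 0.00263), while Mapk3, which encodes ERK1, fell by 0.77 (adjusted p = 0.00388) and the scaffold gene Ksr1 by 0.56 (adjusted p = 0.0107). Between the lines 0 of 25 passed without the block (limma, 6 at an unadjusted p under 0.05). With it, 1 rose (Rasgrp3) and 2 fell, where 2.99% of all genes were called higher and 4.54% lower.

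Of 13 tested adaptors that couple receptors to Ras (14 listed), 2 rose and 1 fell in replicate 2. Over all genes tested, 10.8% were called higher in replicate 2 and 19.8% lower. Irs2 rose by 0.55 (limma adjusted p = 0.00409) and Cbl by 0.27 (adjusted p = 0.0496), and Shc1 fell by 0.32 (adjusted p = 0.043). Between the lines 0 of 13 passed without the block (limma, 4 at an unadjusted p under 0.05). With it, 2 rose and 1 fell, where 2.99% of all genes were called higher and 4.54% lower. Of 11 growth factor receptors tested (15 listed), 2 rose and 1 fell in MEF Nf2-/- without the block. That fit called 0.479% of all genes higher and 0.578% lower. The PDGF receptor gene Pdgfra was at 12.3, 5.22 and 11.7 RPKM in MEF Nf2fl/fl and at 1.42, 0.657 and 0.962 RPKM in MEF Nf2-/- (-2.35, limma adjusted p = 0.0329). The EGF receptor gene Egfr rose by 0.70 (limma adjusted p = 0.0329) and the hepatocyte growth factor receptor gene Met by 0.58 (adjusted p = 0.0399). With the block, 2 receptors rose and 3 fell, where 2.99% of all genes were called higher and 4.54% lower. Without the block the calls of Pdgfra, Egfr and Met were lost when any 1 library was left out (limma adjusted p from 0.0559 to 0.187). The exceptions were Pdgfra and Egfr without replicate 2 of MEF Nf2fl/fl, whose calls held. With 1 library left out, the differences were -2.71 to -2.16 for Pdgfra, 0.657 to 0.756 for Egfr and 0.531 to 0.606 for Met. In replicate 2, 1 receptor rose (Axl, 0.60, limma adjusted p = 0.0171) and 4 fell, where 10.8% of all genes were called higher and 19.8% lower. Among those that fell were Pdgfrb (-1.58, limma adjusted p = 0.00131), Pdgfra (-0.73, adjusted p = 0.0177) and Ddr2 (-0.72, adjusted p = 0.00349).

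Of 16 nuclear effectors and regulators, 1 rose and 3 fell in replicate 2, where 10.8% of all genes were called higher and 19.8% lower. The repressor gene Cic was at 20.4, 11 and 18.3 RPKM in MEF Nf2fl/fl and at 17.2, 9.31 and 14.4 RPKM in MEF Nf2-/-, lowest in replicate 2 of each line (-0.73 on the log2(RPKM + 1) scale, limma adjusted p = 0.00301). The ERK-activated kinase gene Mknk2 fell by 0.46 (adjusted p = 0.0146) and the ETS factor gene Elk1 by 0.27 (adjusted p = 0.0496), while the ETS factor gene Elk3 rose by 0.30 (adjusted p = 0.0309). Between the lines 0 of 16 passed without the block (limma, 3 at an unadjusted p under 0.05). With it, 1 rose and 1 fell, where 2.99% of all genes were called higher and 4.54% lower.

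These replicate 2 calls outside the 10 feedback genes differed in how far they held. Egr1, Hbegf, Plaur, Phlda1, Rras2, Mapk3, Pdgfrb, Ddr2 and Cic passed under all 17 alternatives, Irs2 under 16 of 17, Rasgrp3 under 15 of 16, Dusp10 under 15 of 17, and Dusp1 and Mknk2 under 14 of 17. Axl passed under 13 of 17, Ksr1 under 12 of 16, Pdgfra under 11 of 17 (not after quantile normalization) and Elk3 under 10 of 17. Cbl passed under 8 of 17, Dusp8 under 7 of 16, Shc1 under 7 of 17 and Elk1 under 5 of 17, the last 2 also lost after quantile normalization or median centring. Leaving out replicate 2 of MEF Nf2-/- or of MEF Nf2fl/fl ended the calls of 9 genes (Axl, Cbl, Dusp1, Dusp8, Elk1, Elk3, Ksr1, Mknk2 and Shc1). These fits leave 1 replicate 2 library, so their spread comes only from replicates 1 and 3. Dusp10 lost its call without replicate 2 of MEF Nf2-/- (adjusted p = 0.053), Irs2 without replicate 2 of MEF Nf2fl/fl (adjusted p = 0.054) and Pdgfra without replicate 2 or 3 of MEF Nf2fl/fl (adjusted p up to 0.18). Cbl, Dusp8, Elk1, Elk3 and Shc1 also lost theirs without at least 1 library of replicate 1 or 3.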

How the data were processed

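RNA of 6 MEF libraries, 3 per line, was sequenced, and library preparation, sequencing and analysis were done by GENEWIZ. The authors deposited 1 table of 26231 genes by 6 libraries. Its unit was not stated, and the values as deposited by the authors were taken as RPKM, because with GENCODE exon lengths 83.7% to 85.5% of values of up to 20 reads were whole within 0.05 reads at the inferred depth (4.1% to 8.2% at the median of other depths). The submitters' processing notes name build mm10. The aligner and counter were not given in the sources used here.

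Values were set to log2(RPKM + 1), which understates changes of low genes. Genes at or above 1 RPKM in 3 or more libraries (11067) entered limma 3.58.1 (statmod 1.5.0) in R 4.3.3 (lmFit, eBayes with trend and robust), as two-sided tests whose p-values were adjusted by Benjamini-Hochberg across that set, and a threshold of 0.05. All 10 feedback genes passed the filter. The line difference was fitted without a block, and the replicate 2 difference with a term for the line. Intervals of counts were not used, since depth was only inferred.

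After subtraction of each line's mean, libraries with the same number correlated across genes at 0.552, 0.819 and 0.516 for replicates 1, 2 and 3. The deviations within a line cancel, so a shift shared by replicate 2 also raises the values of replicates 1 and 3. These correlations therefore do not show that replicates 1 and 3 are paired by number, and for them the block rests on the shared column marks. Blocked values are given beside each result they change. The models were tested on simulated data. Alternatives were pseudocounts, filters, moderation, scaling, voom on inferred reads, the block and left-out libraries.

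The genes named were the feedback genes, Nf2, for each pathway list up to 4 genes past the threshold with the largest change per comparison, the highest marker of each list and the 5 closest patterns. The members and lists were chosen, and the replicate 2 comparison was proposed, with earlier results of these data known. The p-values of that comparison are therefore not those of one set in advance.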

Additional observations from a re-analysis of the deposited data

How the results depend on the processing

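Without the replicate block, the line difference called 117 genes, against 833 with the replicate block, 63 with a filter of 5 RPKM, 9 without a filter, and 0 to 484 with 1 library or replicate number left out (484 without replicate 2, and 0 without replicate 1 or replicate 3, where 578 and 556 genes had an unadjusted p under 0.05 in limma). It called 0 feedback genes, 6 with the block, and 0 to 2 in the left-out fits. The block was also combined with each alternative, chosen after seeing the data. With a filter of 5 RPKM, which removed Dusp4, Spry2 and Spry4, it called 4 of the 7 feedback genes tested (Spry1, Spred2, Etv4 and Etv5). It called 0 without a filter (2 genes in all, 3155 at an unadjusted p under 0.05 in limma), 2 to 4 in the left-out fits, and 6 under the other settings. The replicate 2 difference called 3386 genes, 884 without a filter, 1976 without the line term and 699 to 3375 in the left-out fits, the fewest without replicate 2 of MEF Nf2-/-. Its count of feedback genes was 6, 3 without the line term and 4 to 7 in the left-out fits. The interaction called 0 to 16 genes in the left-out fits. Line differences that changed sign, none past the threshold, were those of Dusp5 (-0.0632 with voom, -0.672 to 0.54 in the left-out fits), Dusp4 (-0.296 to 0.175), Dusp6 (-0.952 to 0.0855) and Nf2 (-0.0301 to 0.0911), and the replicate 2 difference of Spry1 (-0.497 to 0.0238). The causes of these changes were not tested. Dusp4 rested on 28.9 to 351 inferred reads a library. Cre activity and Nf2 protein were not measured in these files.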
